A study of Mus musculus with 11 samples.

Results

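The cells described here came from the mouse cochlea at postnatal day 1 (P1). They are called Deiters' cells of the third row (DC3s) after a gate on the values of 10 genes in each cell. A cell passed if it held Fgf3, Prss23 at 2 or more on the deposited natural log scale, and Fgfr3 or Prox1. It also had to lack Matn4 and Pmch, with Npy under 2, Myo6 under 1.5, Ccer2 under 2 and Oc90 under 3.5. In all, 68 of 14043 P1 cells passed, 26, 3, 8 and 31 of them in replicates 1 to 4, out of 30634 cells in the whole series.

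Deiters' cells (DCs) are supporting cells of the organ of Corti. Each DC cups the base of an outer hair cell (OHC) and sends a stalk of microtubules up to the surface of the epithelium, where the DCs and the hair cells (HCs) form a regular mosaic. The DCs lie in rows lateral to the pillar cells, and the third row is the outermost, next to Hensen's cells. Supporting cells form next to HCs through Notch signaling, in which ligands on one cell activate receptors on its neighbor and switch on genes of the Hes and Hey families. The gate names a ligand, Fgf3, and a receptor, Fgfr3, of the fibroblast growth factor (FGF) pathway, and Prox1, a transcription factor of pillar cells and DCs. Lgr5, a receptor for R-spondins that raises the response to Wnt ligands, marks supporting cells that can divide or form HCs in the neonatal cochlea.

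The P1 samples were 4 libraries made with the 10x Chromium droplet system from the cochlear duct floor of wild-type CD1 mice, dissociated to single cells. Each library was a separate collection that pooled pups of either sex, so that the spread between libraries is a spread between pools and not between animals. Libraries at embryonic day 14 (E14, n = 2), E16 (n = 3) and P7 (n = 2) were used only to apply the same gate at other ages. Captured transcripts were counted by unique molecular identifiers (UMIs), and a level is given in CPM, the mean share of a gene in the UMIs of a cell, scaled to 1000000 UMIs, over all cells of a group in 1 library. No cell carried its position in the tissue, so that a row can be assigned only by the genes of the gate.

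The number of cells differed between the libraries, and so did the depth behind each level. The 68 cells held 405728 UMIs, 191500 and 147448 of them in replicates 1 and 4, but 14953 in replicate 2 and 51827 in replicate 3. A single UMI was worth about 66.9 CPM in replicate 2, against 5.22 CPM in replicate 1. Replicate 2 therefore stood apart with 3 cells, and for each comparison the counts of calls are given with and without it, as are the named genes whose calls were lost. Median depth was 5783 UMIs in DC3s and 4836 UMIs in all other non-hair cells. Pairs of P1 libraries shared 5 to 27 cell barcodes, and 1 of the 68 cells had a barcode that was also found in another library. Mitochondrial genes took a mean of 0.601% of the UMIs of DC3s, against 0.558% in all other non-hair cells.

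The share of cells that passed the gate was 0.694% (exact binomial 95% interval 0.454 to 1.01) in replicate 1, 0.138% (0.0284 to 0.402) in replicate 2, 0.318% (0.137 to 0.625) in replicate 3 and 0.554% (0.377 to 0.785) in replicate 4. These intervals cover counting error only, and those of replicates 1 and 2 do not overlap. Requiring Fgf3 removed most cells: 410 cells held a UMI of Fgf3, 309 of these had enough Prss23, and 132 of those held Fgfr3 or Prox1. Excluding Matn4 left 91 cells, the limit on Npy left 79, and the remaining limits left 68. The Prss23 values nearest to the threshold were 2.01 inside and 1.45 outside it on the natural log scale. For Myo6 they were 1.47 inside and 1.54 outside, for Npy 0.92 inside and 2.33 outside, and for Ccer2 1.64 and 2.32. Of the 68 cells, 21 held 1 UMI of Fgf3 and 47 held 2 or more, up to 8. Both Fgfr3 and Prox1 were found in 41 cells, Fgfr3 without Prox1 in 18 and Prox1 without Fgfr3 in 9.

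**Figure D1:**
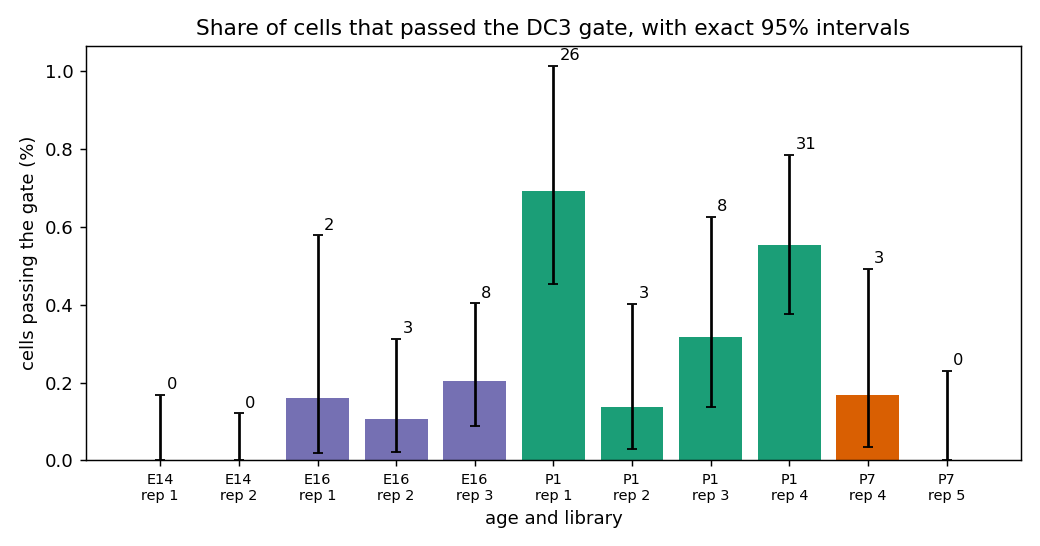
Bars give the percentage of cells in each of the 11 libraries that passed the gate, by age, with exact 95% binomial intervals and the number of cells above each bar. The P1 libraries range from 0.138% to 0.694%, while no cell passed in either E14 library.

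The levels of the gate genes show what the gate selected and are given as a description. Fgf3 (chromosome 7, 144838083 to 144844436, GRCm38) stood at 333, 269, 272 and 515 CPM in DC3s of replicates 1 to 4. In all other non-hair cells it was 6.46, 7.86, 13.9 and 11.4 CPM. Fgf3 was not restricted to the gated cells: an inner phalangeal cell (IPhC) gate, defined by Matn4, held 112, 183, 469 and 295 CPM, and in replicate 3 this was above the level in DC3s. Inner pillar cells (IPCs, gated on Npy) held 52.5, 39.1, 43.5 and 102 CPM, and 29.0% of them had a UMI of Fgf3, against 1.87% of HCs, at median depths of 7158 and 5697 UMIs. Prss23 (chromosome 7, 89507783 to 89527187), which encodes a secreted serine protease, was at 3129, 1974, 2778 and 2260.3 CPM in DC3s and 344, 198, 178 and 273 CPM in all other non-hair cells. Fgfr3 was at 441, 552, 246 and 415 CPM and Prox1 at 273, 128, 233 and 289 CPM.

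Lgr5 (chromosome 10, 115450311 to 115587780) was named beforehand as a marker of these cells but took no part in the gate. Its level was 205, 128, 150.4 and 244 CPM in DC3s and 18.5, 23.8, 23.7 and 18.2 CPM in all other non-hair cells. Every library of DC3s was above every library of the other cells. The IPhC gate held 99.6, 195, 149 and 78.9 CPM of Lgr5, which overlaps the DC3 range, and IPCs held 108, 74.6, 117 and 154 CPM. A UMI of Lgr5 was found in 61.8% of DC3s, and in 22.1% (exact interval 12.9 to 33.8) once every cell had been drawn down to 1500 UMIs, which left out no DC3. In HCs, which served as background, the share was 2.87% at 1500 UMIs. Median depths before drawing were 5783 UMIs in DC3s and 5697 UMIs in HCs.

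**Figure D2:**
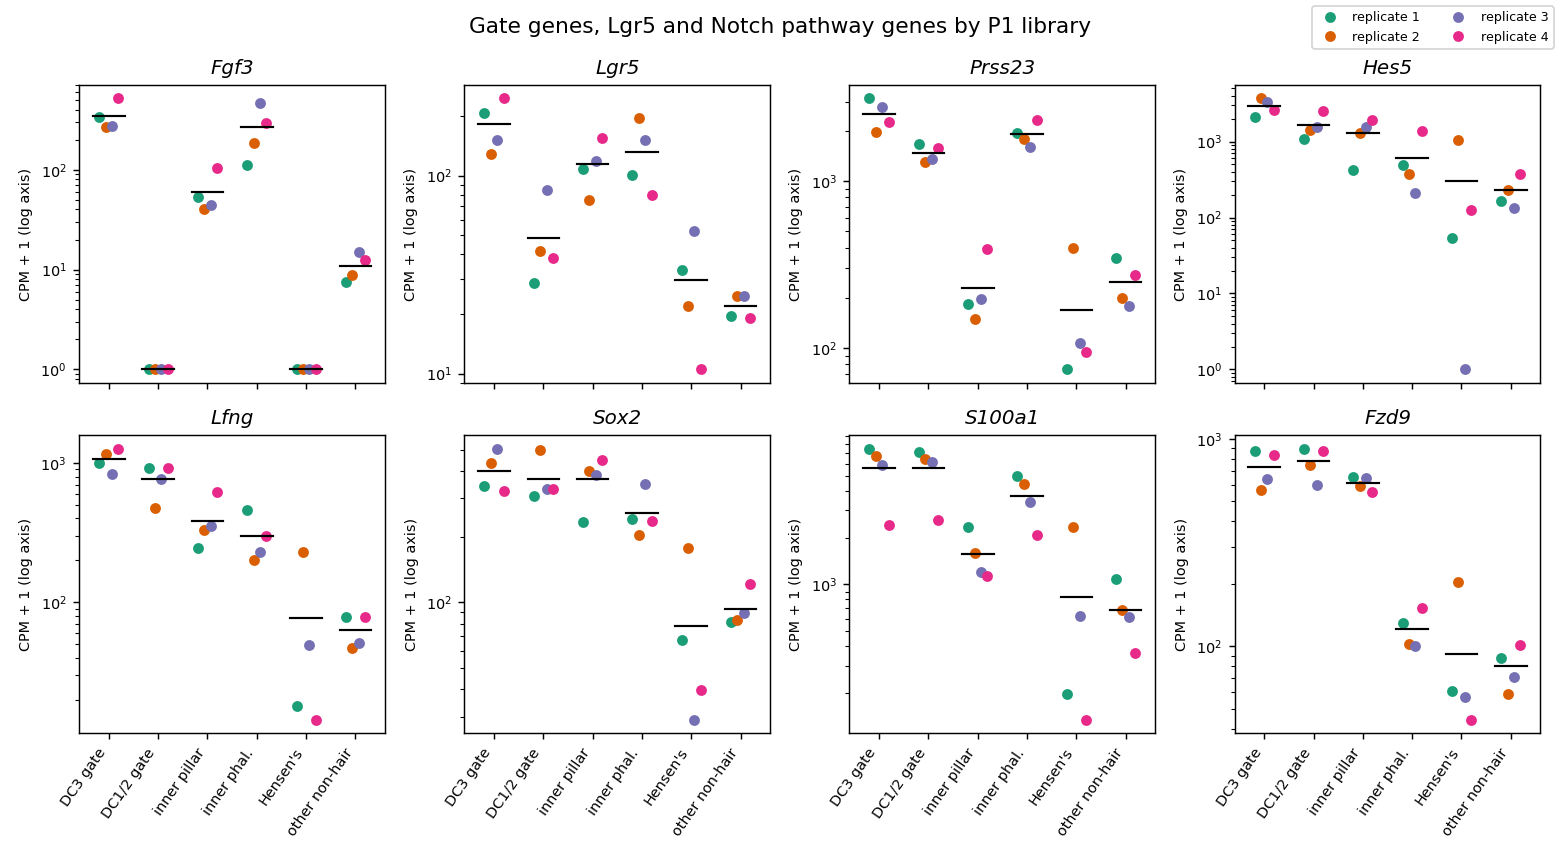
Points give the level of each gene in CPM plus 1, on a log axis, in each of the 4 P1 libraries for 6 groups of cells, and black lines give the mean. Fgf3 and Prss23 are gate genes, Lgr5 and Hes5 have their highest means in the DC3 gate, while Lfng, Sox2, S100a1 and Fzd9 were not called between the DC3 gate and the DC1/2 gate.

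To find which other genes differed between DC3s and the non-hair cells as a whole, each library's DC3s were compared with its 12478 remaining non-hair cells (all cells under the limits for Myo6 and Ccer2, pooled over libraries). A gene that differs here can be shared with neighboring supporting cells, which are compared separately below. Genes were called with limma on log2(CPM + 10), with library as a block and a Benjamini-Hochberg adjusted p under 0.05 over all genes tested. The gate genes took no part. Of 8456 genes tested, 265 (3.13%) were higher and 468 (5.53%) were lower in DC3s. The counts of list members given below for this comparison are to be read beside these shares. Of the lower calls, 162 were of genes under 50 CPM, and 45 were of genes with no UMI in DC3s. The median log2 fold change was 0.03 for genes of at least 50 CPM and -0.25 for weaker genes. When only genes of at least 50 CPM were fitted, 202 were higher and 199 were lower. When the comparison profiles were drawn down to the UMI total of the DC3s, 44 were higher and 55 were lower, and all 99 were among the calls above. On the mean of the deposited log values, the split was 415 higher and 293 lower. The counts were 181 and 312 without replicate 1, 399 and 492 without replicate 2, 202 and 309 without replicate 3, 177 and 285 without replicate 4, and 494 and 540 without replicates 2 and 3. Of the 75 genes named here for this comparison, Nrarp, Heyl, Wnt5a, Rspo2, Krt8 and S100b lost their call without replicate 1, Heyl, Hes1, Wnt5a, Rspo2, Krt8 and S100b without replicate 3, and Heyl, Hes1, Wnt5a, Rspo2 and Inhba without replicate 4. Without replicate 2, 0 of the 75 lost it by limma. Requiring at least 2 UMIs of Fgf3 left 18, 1, 4 and 24 cells in replicates 1 to 4, so that the profile of replicate 2 was 1 cell. Under this requirement, Heyl, Hes1, Fgfrl1, Kremen1, Dkk3, Wnt5a, Tgfbr1 and Sox2 lost their call. So did Mycl, Cdkn1a, Cdkn1b, Fscn1, Krt8, Cdh1, Ephb1 and S100b, and the sign of Nrarp turned. At equal UMIs 41 of 74 named genes lost their call, and these are given with each group of genes below.

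Genes of the Notch pathway were among the largest rises. Hes5 (chromosome 4, 154960923 to 154962371), a repressor that Notch switches on, stood at 2072, 3684, 3267 and 2581 CPM in DC3s and 166, 230.2, 134 and 378 CPM in the other cells (log2 fold change 3.69, SE 0.18, adjusted p = 5.17e-22 by limma). Lfng (chromosome 5, 140607320 to 140615545), a glycosyltransferase that changes how Notch receptors respond to ligands, was at 999.9, 1159, 839.7 and 1264 CPM against 76.8, 46.03, 50.4 and 77.1 CPM (log2 fold change 3.90, SE 0.24, adjusted p = 2.21e-18 by limma). Both genes were above the other cells in 4 of 4 libraries, with no overlap between the groups. Both remained called when the comparison profile was drawn to equal UMIs (adjusted p = 0.0116 and 0.00781). Hey1, another Notch target, was at 898, 757, 794 and 1074 CPM against 199.9, 232, 146 and 381 CPM (log2 fold change 1.90, SE 0.20, adjusted p = 1.15e-10 by limma). Of the 6 Hes and Hey genes tested, 3 were higher (Hes5, Hey1 and Heyl) and 1 was lower: Hes1 was at 366, 1139, 285 and 489 CPM in DC3s and 333, 1065, 831 and 1294 CPM elsewhere (log2 fold change -0.67, limma's adjusted p = 0.0247), and its libraries overlap. Within libraries Hes1 was higher in DC3s in replicates 1 and 2 and lower in replicates 3 and 4, and its call was lost without replicate 3 and without replicate 4 (limma's adjusted p = 0.32 in both). The only ligand tested was Jag1, at 194, 275, 399 and 288 CPM against 56.2, 82.9, 71.9 and 92.5 CPM (log2 fold change 1.77, limma's adjusted p = 2.24e-05). None of the 3 receptors tested was called. Of 10 fringes and modulators tested, Lfng and the feedback gene Nrarp were higher (log2 fold change of Nrarp 1.14, limma's adjusted p = 0.00135). Nrarp was not called, and was lower by 0.19, when at least 2 UMIs of Fgf3 were required, which left 1 cell in replicate 2. At equal UMIs Hey1 was called as well (limma's adjusted p = 0.0499), while Heyl, Hes1, Jag1 and Nrarp were not (limma's adjusted p = 0.291, 0.594, 0.144 and 0.296). The median log2 fold change was 1.29 over the 6 Hes and Hey genes and -0.42 over the 10 modulators, beside -0.14 over all genes tested.

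The sequences around the starts of the called Notch and Wnt receptor genes with the largest rises over all other non-hair cells are given. Each is the RefSeq window of 250 bases before to 50 bases after the start (GRCm38.p6), read on the strand of the gene. Capitals mark TGGGAA on either strand, the core that the Notch partner RBPJ binds. For Hes5 the window is chr4:154960673-154960972 (+), for Lfng chr5:140607091-140607390 (+) and for Fzd9 chr5:135250998-135251297 (-).
Hes5: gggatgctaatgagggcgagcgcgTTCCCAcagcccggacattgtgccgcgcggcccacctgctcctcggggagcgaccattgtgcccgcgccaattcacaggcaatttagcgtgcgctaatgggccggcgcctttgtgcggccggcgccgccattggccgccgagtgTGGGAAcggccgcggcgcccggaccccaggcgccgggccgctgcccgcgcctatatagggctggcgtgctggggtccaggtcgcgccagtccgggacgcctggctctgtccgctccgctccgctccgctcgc
Lfng: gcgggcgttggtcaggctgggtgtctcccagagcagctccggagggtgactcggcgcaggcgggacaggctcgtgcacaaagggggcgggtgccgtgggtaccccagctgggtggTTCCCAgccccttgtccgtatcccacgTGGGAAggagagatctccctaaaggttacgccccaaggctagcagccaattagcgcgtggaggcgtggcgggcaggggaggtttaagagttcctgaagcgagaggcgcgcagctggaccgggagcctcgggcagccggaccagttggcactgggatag
Fzd9: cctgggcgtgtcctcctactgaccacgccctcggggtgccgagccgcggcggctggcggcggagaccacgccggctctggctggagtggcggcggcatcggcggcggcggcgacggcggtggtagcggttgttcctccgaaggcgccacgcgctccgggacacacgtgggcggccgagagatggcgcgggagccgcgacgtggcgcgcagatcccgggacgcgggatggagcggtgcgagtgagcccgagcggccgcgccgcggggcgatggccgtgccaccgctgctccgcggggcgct
The Hes5 window holds 2 matches, 82 bases before the start on the strand of the gene and 226 bases before it on the opposite strand. Lfng also holds 2, 108 bases before the start on its own strand and 135 bases before it on the opposite strand. Fzd9 holds none. Neither these windows nor that of Fzd9 holds CTTTGA, the core bound by TCF and LEF factors of the Wnt pathway, on either strand. Over all 32851 windows of this length, 25.6% hold TGGGAA and 16.0% hold CTTTGA, so that a match by itself is common.

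For the FGF pathway, 1 ligand other than Fgf3 was abundant enough to test, Fgf10, and it was not called. Fgfrl1, a receptor that lacks a kinase, was at 109, 269, 165 and 172 CPM in DC3s and 42.8, 46.6, 54.8 and 44.1 CPM in the other cells (log2 fold change 1.66, limma's adjusted p = 0.00154). Of 8 feedback and target genes of FGF signaling tested, 0 were higher by limma and 1 was lower, Ier3 (5.81, 0, 0 and 5.46 CPM against 54.2, 158, 91.8 and 73.3 CPM, log2 fold change -2.97). Their median log2 fold change was -0.97, beside -0.14 over all genes tested and -0.25 over genes under 50 CPM. The 17 genes of the list summed to only 103 to 219 CPM in DC3s. Neither Fgfrl1 nor Ier3 was called at equal UMIs.

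Of the Lgr, R-spondin and Wnt receptor genes, 13 were tested, 3 were higher and 1, the ligand Rspo2, was lower. Fzd9, a Wnt receptor, was at 869, 563, 642 and 832 CPM in DC3s and 86.9, 57.7, 70.3 and 101 CPM in the other cells (log2 fold change 3.05, SE 0.24, adjusted p = 2.85e-14 by limma), with no overlap. Fzd4 was at 223, 195, 66.1 and 445 CPM against 23.8, 27.2, 20.1 and 53.9 CPM (log2 fold change 2.35, limma's adjusted p = 2.51e-05). Lgr5, the other member called, was a marker fixed for these cells. Among 11 antagonists and feedback genes of the Wnt pathway tested, Kremen1 and Sfrp1 were higher and Dkk3 was lower. Sfrp1, which encodes a secreted protein that binds Wnt ligands, was at 1328, 2037, 2480.1 and 2193 CPM in DC3s against 908, 1196, 1249 and 1479 CPM (log2 fold change 0.71, limma's adjusted p = 1.91e-05). Of 4 Wnt ligands tested, 1, Wnt5a, was lower. Of the genes named in this paragraph, Fzd9 and Fzd4 were called at equal UMIs, Rspo2 was not tested there, and the others were not called. Of 14 genes of BMP, activin and TGF-beta signaling tested, 2 were higher and 1, Fstl1, was lower, beside 3.13% and 5.53% of all genes tested. Their median log2 fold change was -0.21, beside -0.14 over all genes. The members that rose were the receptor Tgfbr1, at 202, 122, 188 and 114 CPM, and Inhba, at 87.3, 66.9, 122 and 203 CPM. Neither was called at equal UMIs, and Tgfbr1 also lost its call with at least 2 UMIs of Fgf3.

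Of 23 transcription factors of supporting cells tested, 5 were higher and 5 were lower, beside 3.13% and 5.53% of all genes tested. Their median log2 fold change was -0.08. Sox2, which marks the prosensory domain and later the supporting cells, was at 339.8, 433, 503 and 323 CPM in DC3s and 80.6, 82.1, 88.1 and 119.9 CPM in the other cells (log2 fold change 1.99, SE 0.27, adjusted p = 2.45e-07 by limma). Gata3 was at 612, 779, 605 and 578 CPM against 195, 205, 259 and 266 CPM, and Zbtb20 at 729.9, 1162, 1001 and 1564 CPM against 319.7, 247, 273 and 346 CPM (log2 fold changes 1.44 and 1.83). Mycl was also higher (log2 fold change 2.43). Isl1 was lower, at 269.5, 134, 270.2 and 616 CPM against 636, 455, 698 and 826 CPM (log2 fold change -1.16, limma's adjusted p = 3.24e-05). Emx2, a homeobox factor outside this list, was at 262, 141, 141 and 151 CPM against 17.1, 5.58, 6.15 and 14.4 CPM, and replicate 1 stood above the other libraries. At equal UMIs Gata3, Isl1 and Emx2 were not called, and Sox2 and Mycl were not called with at least 2 UMIs of Fgf3.

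Among inhibitors of the cell cycle, Cdkn1b (p27Kip1, which holds supporting cells out of division) was at 148, 128, 124 and 216 CPM in DC3s and 31.2, 29.3, 28.2 and 35.7 CPM in the other cells (log2 fold change 1.97, limma's adjusted p = 0.000683). Cdkn1a (p21) was at 216, 552, 237 and 253 CPM against 46.2, 70.7, 61.7 and 84.9 CPM (log2 fold change 2.02). Cdkn1c (p57) was lower, at 324, 947, 318 and 155 CPM against 1839, 1268, 971 and 579 CPM (log2 fold change -1.58), but replicate 2 fell near the other cells. Of 4 cell division genes tested, 0 were called by limma in either direction. In the Id family, Id4 was at 618, 530.4, 376 and 1104 CPM against 241, 201, 192 and 442 CPM (log2 fold change 1.23). At equal UMIs Cdkn1a, Cdkn1b, Cdkn1c and Id4 were not called.

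**Figure D3:**
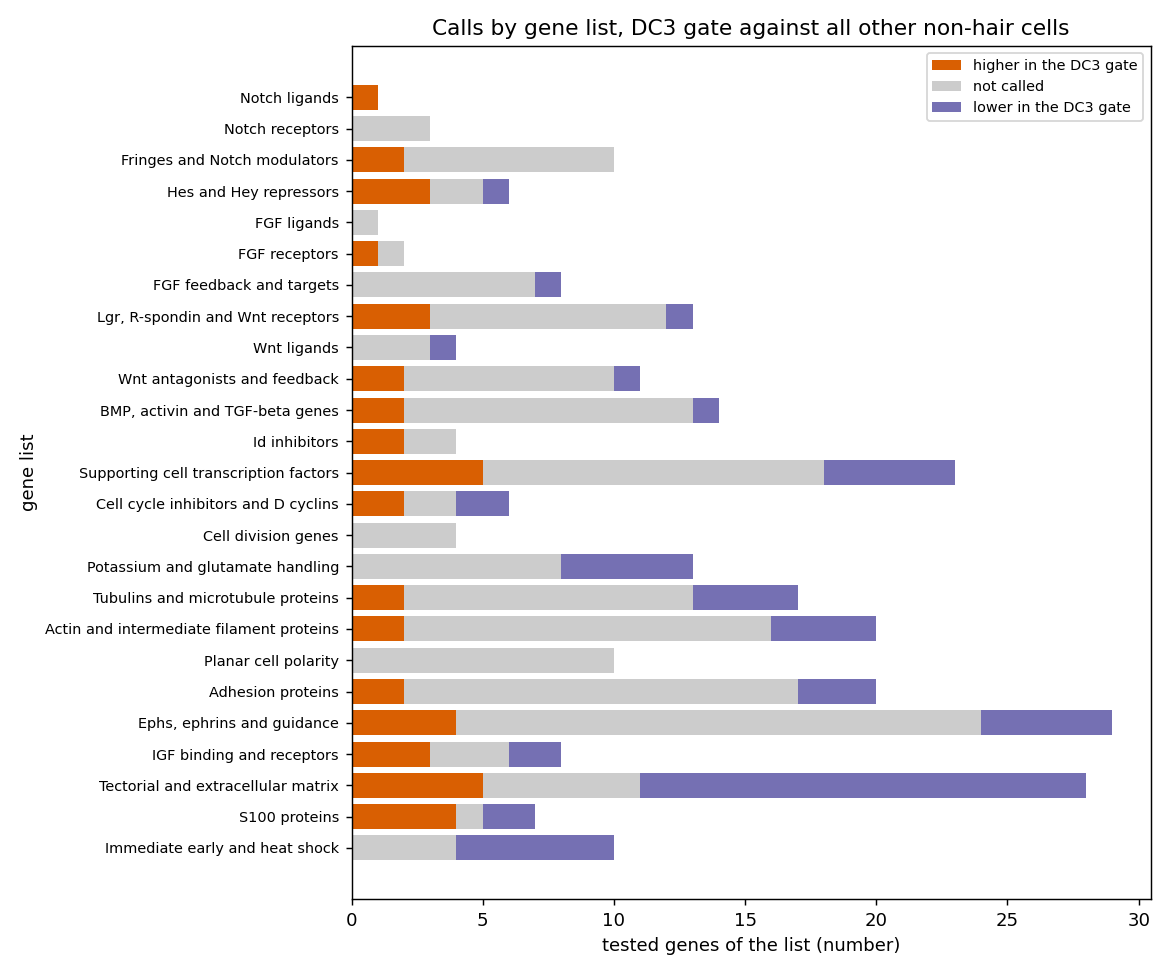
Bars divide the tested genes of each list, in the comparison of the DC3 gate with all other non-hair cells, into genes called higher, not called and called lower at an adjusted p under 0.05. The extracellular matrix list holds 17 lower genes of 28 tested, and 0 of 10 planar cell polarity genes were called. Over all genes tested, 3.13% were higher and 5.53% were lower.

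Among genes of the IGF binding and S100 lists, Igfbpl1 and S100a1 were higher in DC3s. Igfbpl1 (chromosome 4, 45809468 to 45826923), which encodes a protein related to the binding proteins of insulin-like growth factors, was at 1093, 511, 725 and 393 CPM in DC3s and 31.1, 23.6, 18.04 and 18.9 CPM in the other cells (log2 fold change 4.30, SE 0.32, adjusted p = 2.16e-15 by limma). S100a1, a calcium-binding protein, was at 7461, 6681, 5891 and 2403 CPM against 1079.8, 681, 619 and 363 CPM (log2 fold change 2.99, SE 0.12, adjusted p = 9.72e-26 by limma), and was lowest in replicate 4 in both groups. Of 7 S100 genes tested, 4 were higher, S100a13 and S100b among them, and 2 were lower, S100a11 among them; S100a13, S100b and S100a11 were not called at equal UMIs. Igfbp5 and Igfbp3 also rose (log2 fold changes 1.40 and 1.36), while the ligand Igf1 fell to 5.08, 0, 39.7 and 4.06 CPM from 264, 316, 341 and 399 CPM (log2 fold change -4.22). Of these, Igfbp5 was not called at equal UMIs.

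Of the other genes with the largest rises, Pcp4, which encodes a regulator of calmodulin, was at 1154, 1257, 1142 and 926 CPM against 75.7, 56.4, 55.97 and 37.8 CPM (log2 fold change 4.11, SE 0.24, adjusted p = 2.72e-19 by limma). Pcp4 is also a gene of HCs, where its mean was 4755 ± 1232 CPM. The 15 other HC markers on the list that took no part in the gate summed to 479.9, 305, 219 and 208 CPM in DC3s, 309, 222, 219 and 218 CPM in the other non-hair cells and 10382 to 14166 CPM in HCs. Of the 18 HC markers, 4 were at 0 UMIs in DC3s, including the HC-defining factors Pou4f3 and Gfi1. Umodl1 was at 97.3, 283, 155 and 133 CPM against 2.57, 1.75, 1.25 and 3.23 CPM and Rab3b, which encodes a small GTPase of vesicles, at 407, 484, 398 and 108 CPM against 29.96, 30.7, 31.4 and 5.85 CPM. The log2 fold changes were 3.76 and 3.29. Rflnb, Slc7a5, an amino acid transporter, and Cox4i2, a subunit of cytochrome c oxidase, rose by 3.22, 3.18 and 3.03 on the log2 scale, each in 4 of 4 libraries. Of the 12 genes with the largest rises, Slc7a5, Cox4i2 and Emx2 were not called at equal UMIs (limma's adjusted p = 0.0815, 0.0545 and 0.112). Ntf3, a neurotrophin, was at 679, 932, 493 and 448 CPM against 121, 75.6, 94.97 and 130.3 CPM (log2 fold change 2.46, limma's adjusted p = 1.47e-10).

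The cytoskeletal lists were mixed. Of 17 tubulin and microtubule genes tested, Stmn1, whose product binds free tubulin, and Tuba1a were higher and 4 were lower. Stmn1 was at 1299, 848, 1082 and 751 CPM against 241, 323, 262 and 123 CPM (log2 fold change 2.07, SE 0.20, adjusted p = 1.01e-11 by limma). Of 20 actin and intermediate filament genes, Fscn1, a bundling protein, and Krt8 were higher and 4 were lower, including Vim (log2 fold change -2.12) and Krt19, which had no UMI in any DC3. Cdh1, E-cadherin, was at 204, 202, 236 and 406 CPM against 37.1, 61.8, 48.8 and 89.7 CPM (log2 fold change 1.97). Of 20 adhesion genes tested, 2 were higher, Cdh1 among them, and 3 were lower, with a median log2 fold change of -0.26. In the guidance list 4 of 29 were higher, including Ntf3, Unc5b and Ephb1, and 5 were lower, including Epha7. The shares over all genes tested were 3.13% and 5.53%. Of the genes named in this paragraph, Stmn1 and Ntf3 were called at equal UMIs and the others were not.

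The genes that fell most in DC3s included Mia, a secreted protein, and 7 others of mixed kinds. Mia was at 807, 0, 19.8 and 153 CPM in DC3s and 11978, 5595, 4277 and 5359 CPM in the other cells (log2 fold change -6.30, limma's adjusted p = 1.01e-20). Epyc, a small proteoglycan, was at 147, 0, 20.2 and 115 CPM against 3502, 3211, 3093 and 2571 CPM (log2 fold change -5.97, limma's adjusted p = 8.40e-21). Cnmd, Crabp1, Calb1, Meg3, Gsn and Itm2a fell by 5.04 to 6.26 on the log2 scale, and each of these genes had 0 UMIs in DC3s of replicates 2 and 3. All 8 remained called at equal UMIs. Of 28 matrix and tectorial genes tested, 17 were lower and 5 were higher, with a median log2 fold change of -1.77. The collagen Col9a1 was at 319, 336, 124 and 419 CPM against 2958, 2107, 1975 and 2793 CPM. The 2 tectorin genes went in opposite directions: Tecta was lower, at 323, 764, 493 and 375 CPM against 975, 1356, 1346 and 1034 CPM (log2 fold change -1.31, SE 0.16, adjusted p = 1.44e-08 by limma), and Tectb was higher, at 7657, 5287, 6694 and 3253 CPM against 2423, 903, 1127 and 704 CPM (log2 fold change 2.24, SE 0.11, adjusted p = 2.61e-21 by limma). Both encode glycoproteins of the tectorial membrane, which lies over the HCs.

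Genes of potassium and glutamate handling were lower or not called, with 5 of 13 lower, 0 higher by limma and a median log2 fold change of -0.83. The connexin gene Gjb2 was at 138, 66.9, 130.2 and 189 CPM in DC3s and 753, 764, 837 and 877 CPM in the other cells (log2 fold change -2.61, SE 0.22, adjusted p = 4.33e-13 by limma). Gjb6, its partner in gap junctions, was at 4.32, 0, 0 and 21.1 CPM against 112, 86.3, 127 and 228 CPM, and Slc12a2, a cotransporter, at 33.4, 0, 39.2 and 116 CPM against 248, 357, 379.5 and 433 CPM (log2 fold changes -3.27 and -3.14). Of 10 immediate early and heat shock genes tested, 6 were lower and 0 higher by limma, beside 5.53% and 3.13% of all genes tested. Fos was at 186, 0, 44.5 and 16.7 CPM against 693, 137, 259.7 and 181 CPM, and Atf3 at 17.3, 66.9, 75.3 and 90.3 CPM against 88.2, 720.1, 362 and 389 CPM. At equal UMIs Gjb6, Slc12a2, Fos and Atf3 were not called.

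Markers of other cell types were measured in DC3s to check the gate. The medial duct floor list summed to 4006 to 8709 CPM in DC3s and 8384 to 13022 CPM in the other non-hair cells, and Tectb alone held 3253 to 7657 CPM of it in DC3s. All 10 of its genes had a UMI in DC3s, and 8 of the 10 were lower. Mesenchymal markers summed to 135 to 276 CPM in DC3s and 672 to 834 CPM in the other cells, with 5 of 7 genes at 0 UMIs in DC3s, among them Col1a1, Col1a2 and Pou3f4. In the group described next, DC1/2s, they summed to 31.1 to 115 CPM, below every DC3 library. Dcn alone held 135 to 276 CPM of the mesenchymal sum in DC3s. Markers of blood and immune cells had 6 of 8 genes at 0 UMIs, with a sum of 0 to 11.3 CPM, and neuronal markers 3 of 5. Glial markers summed to 0 to 144 CPM in DC3s and 107 to 129 CPM in the other cells. Of 4 Hensen's cell markers tested against all other non-hair cells, Fam159b and Nupr1 were higher in DC3s and 0 were lower by limma. Fam159b was not called at equal UMIs. Of 3 outer sulcus and Claudius cell markers tested, Gata3 was higher and 0 were lower. The part of these transcripts in the results was not tested.

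The closest comparison was with 227 cells (72, 22, 39 and 94 in replicates 1 to 4) that met every other limit of the gate but held no UMI of Fgf3 and at least 1 of Emid1. These are called Deiters' cells of the first and second rows (DC1/2s) here. A DC3 in which no Fgf3 transcript was captured would also fall in this group, and 21 of the 68 DC3s had a single UMI of Fgf3. No limit of the gate was set against outer pillar cells, which cannot be told apart from DC1/2s here. Of 8326 genes tested, 17 (0.204%) were higher and 49 (0.589%) were lower in DC3s, against 625 genes with an unadjusted p under 0.05. At equal UMIs, 2 were higher and 1 was lower, all 3 among those calls, so that no other gene given below as higher or lower was called there. On the mean of the deposited log values 13 were higher and 16 lower, and without the library block 6 and 9. Without replicate 2 the counts were 17 and 54, and without replicates 2 and 3 they were 30 and 70. Of the genes named here for this comparison, Nkd1, Lgr5, Srsf4, Dgat2, Sfrp1, Epcam and Kazald1 lost their call without replicate 1, Srsf4, Ndrg2, Sfrp1, Tagln2, Ntf3, Igfbp5, Mia, Cyr61 and Kazald1 without replicate 2, Nkd1, Dcn, Sfrp1, Krt8, Tagln2 and Epcam without replicate 3, and Nkd1, Lgr5, Dcn, Srsf4, Sfrp1, Epcam and Igfbp5 without replicate 4, each with its direction kept.

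Tectb and Cryab were the 2 higher genes called also at equal UMIs, and Ppp1r2, an inhibitor of protein phosphatase 1, was the lower one. Tectb (chromosome 19, 55180733 to 55196313) was at 7657, 5287, 6694 and 3253 CPM in DC3s and 2966, 1416, 2634 and 1425 CPM in DC1/2s (log2 fold change 1.45, SE 0.09, adjusted p = 1.30e-14 by limma). At equal UMIs its adjusted p was 0.016. Cryab (chromosome 9, 50751325 to 50756636), a small heat shock protein, was at 3094, 5935, 5472 and 2009.8 CPM against 706, 1612, 1829 and 913 CPM (log2 fold change 1.67, SE 0.11, adjusted p = 1.10e-13 by limma), and its adjusted p at equal UMIs was 0.0368. In both genes the lowest DC3 library was above the highest DC1/2 library. Ppp1r2 was at 1357, 915, 709.5 and 1208 CPM in DC3s against 2886, 2233, 1633 and 2493 CPM in DC1/2s (log2 fold change -1.15, SE 0.11, adjusted p = 3.69e-09 by limma), again with no overlap, and was chosen after its values were seen.

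Stmn1 was at 1299, 848, 1082 and 751 CPM in DC3s and 278, 346, 327 and 242 CPM in DC1/2s (log2 fold change 1.69, SE 0.19, adjusted p = 7.82e-08 by limma), and missed the threshold at equal UMIs (adjusted p = 0.0606). Igfbpl1 was at 1093, 511, 725 and 393 CPM against 46.8, 147, 160.0 and 105 CPM (log2 fold change 2.48, SE 0.30, adjusted p = 6.92e-07 by limma). Umodl1 was at 97.3, 283, 155 and 133 CPM against 4.27, 0, 20.6 and 33.6 CPM, with the largest log2 fold change among the genes called higher in this comparison, 2.98. Lgr5, a marker fixed for these cells, was at 205, 128, 150.4 and 244 CPM against 27.7, 40.5, 83.9 and 37.1 CPM. Dcn, a proteoglycan on the list of mesenchymal markers, was at 167, 135, 276 and 252 CPM against 112, 31.1, 33.6 and 77.1 CPM (log2 fold change 1.67, limma's adjusted p = 0.0243), and Srsf4, a splicing factor, at 96.8, 276, 216 and 203 CPM against 27.7, 38.3, 113 and 80.2 CPM. The part of mesenchymal transcripts in this comparison was not tested. Nkd1, a feedback inhibitor of Wnt signaling, was at 74.4, 135, 144 and 105 CPM against 23.1, 13.02, 4.46 and 41.4 CPM (log2 fold change 2.14, limma's adjusted p = 0.0498). Sfrp1 was also higher (log2 fold change 0.44). Both calls lay close to the threshold and were lost under most of the alternatives tried, among them equal UMIs (limma's adjusted p = 0.81 and 0.81) and the fit without the library block. Frzb, a relative of Sfrp1 that also binds Wnt ligands, was lower. Pcp4 was at 1154, 1257, 1142 and 926 CPM against 473, 504, 563 and 348 CPM (log2 fold change 1.24), and the 15 other HC markers outside the gate summed to 208 to 479.9 CPM in DC3s and 186 to 415 CPM in DC1/2s.

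Hes5 was the Notch pathway gene called in this comparison, at 2072, 3684, 3267 and 2581 CPM in DC3s and 1063, 1419, 1540.0 and 2552 CPM in DC1/2s (log2 fold change 0.86, limma's adjusted p = 3.80e-05). The groups overlap: in replicate 4 the levels were 2581 and 2552 CPM, and at equal UMIs Hes5 was not called (adjusted p = 0.81). Lfng was at 999.9, 1159, 839.7 and 1264 CPM against 913, 474, 769 and 925 CPM and was not called (adjusted p = 0.25 by limma). Hey1 was at 898, 757, 794 and 1074 CPM against 792, 905, 725 and 992 CPM, and Jag1 at 194, 275, 399 and 288 CPM against 120.0, 177, 170.3 and 289.6 CPM, and neither was called. Sox2 was at 306, 495, 330.5 and 329.7 CPM in DC1/2s and S100a1 at 7141, 6420.0, 6149 and 2615 CPM, with log2 fold changes of 0.13 ± 0.22 and -0.02 ± 0.07 (SE). Of 23 supporting cell transcription factors tested, 0 were called by limma, beside 0.204% of all genes higher and 0.589% lower. None of the tested cell cycle inhibitors and D cyclins (5), Id genes (4), S100 genes (7) or BMP, activin and TGF-beta genes (14) was called. Of 12 Lgr, R-spondin and Wnt receptor genes tested, Lgr5 was the only call, and Fzd9 and Fzd4 were not called. Ntf3 was at 679, 932, 493 and 448 CPM against 436, 266, 263 and 399 CPM (log2 fold change 0.86, limma's adjusted p = 0.0422).

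**Figure D4:**
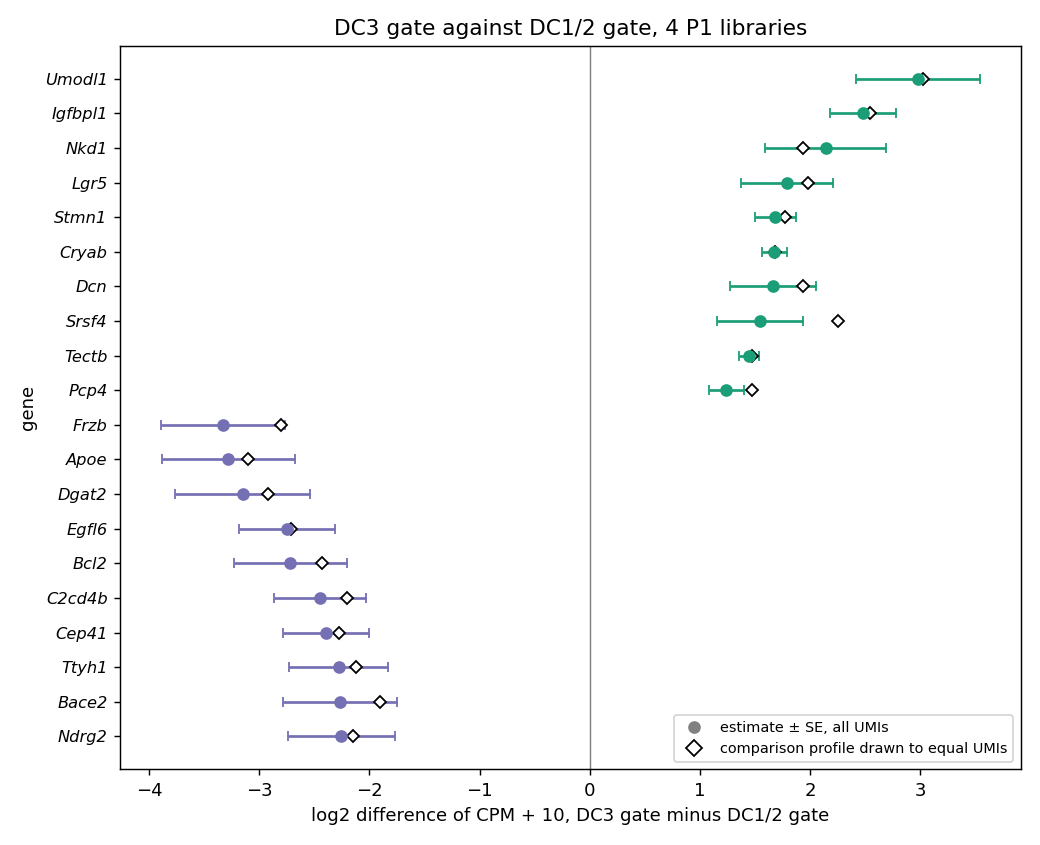
Filled points give the log2 difference of CPM + 10 between the DC3 gate and the DC1/2 gate for 20 genes, with bars of 1 standard error. Open diamonds give the difference between profiles of summed UMIs, after the DC1/2 profile was drawn down to the UMI total of the DC3s. The differences keep their direction at equal UMIs, while only Tectb and Cryab of these genes remained called.

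The genes lower in DC3s than in DC1/2s included genes of few transcripts and abundant ones. Frzb was at 5.81, 0, 26.8 and 5.27 CPM in DC3s and 164, 244, 274 and 62.2 CPM in DC1/2s (log2 fold change -3.33, limma's adjusted p = 0.000326), from 3 and 200 UMIs. Apoe, a lipid carrier, was at 16.8, 0, 0 and 32.3 CPM against 132, 311, 280.3 and 67.01 CPM, and Dgat2, an enzyme of triglyceride synthesis, at 8.41, 0, 0 and 14.2 CPM against 165, 169.6, 77.7 and 91.6 CPM. Egfl6, a matrix protein on the list of Hensen's cell markers, was at 90.5, 0, 26.8 and 61 CPM against 287, 245, 217 and 302 CPM (log2 fold change -2.75, limma's adjusted p = 0.00013). Bcl2, an inhibitor of cell death, was at 63.7, 0, 0 and 218 CPM against 170.5, 255, 176 and 344 CPM. The log2 fold changes of C2cd4b, Cep41, Ttyh1, Bace2 and Ndrg2 lay between -2.45 and -2.25. Of these 10 genes, 9 had 0 UMIs in DC3s of replicate 2, while C2cd4b was at 295.9 CPM there and at 8.61 to 38.5 CPM in the other libraries.

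Abundant genes also fell. The keratins Krt18 and Krt8, which pair in the filaments of supporting cells, were at 1164, 2102, 1735 and 1259 CPM and 961, 2389, 1999 and 1121 CPM in DC3s, against 2109, 2718, 3477 and 2141 CPM and 1536, 2351, 3409 and 1805 CPM in DC1/2s. Their log2 fold changes were -0.75 ± 0.11 and -0.52 ± 0.12 (SE). Epcam was at 1360.3, 1389.7, 1496 and 1393 CPM against 2010.0, 1971, 1962 and 1845 CPM (log2 fold change -0.46, limma's adjusted p = 0.0225), and its libraries did not overlap. Igfbp3 was at 611, 1324, 839 and 675 CPM against 1683, 1885, 2032 and 981 CPM, and Igfbp5 at 1245, 1077, 1282 and 345 CPM against 1330.0, 1703, 1815 and 832 CPM. Of the 4 markers of DC1/2s on the list, Pdzk1ip1 and Serpine2 were lower (log2 fold changes -2.11 and -0.99), S100a1 was not called, and Emid1 was used by the gate.

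IPCs, 145 cells gated on Npy, were set beside these genes without a test. They lie medial to the DCs, with the outer pillar cells, for which no gate was made here, between them. Cryab was at 7281, 11034, 8371 and 5641 CPM in IPCs, above DC3s in every library. Igfbpl1 was at 1002, 902, 744 and 921 CPM, Stmn1 at 1370.0, 1276, 1131 and 749 CPM and Tectb at 5174, 3704, 3484 and 3529 CPM in IPCs. For the other named genes the mean levels over 4 libraries are given. Of the genes higher in DC3s than in DC1/2s, Umodl1, Nkd1, Lgr5 and Pcp4 had means of 46.5, 51.8, 113 and 648 CPM in IPCs, against 14.6, 20.5, 47.3 and 472 CPM in DC1/2s. Dcn, Srsf4, Hes5, Sfrp1 and Ntf3 had means of 32.2, 62.2, 1289.9, 137 and 287 CPM in IPCs, none of them above the 63.4, 64.9, 1643, 1498 and 341 CPM of DC1/2s. Of the 10 genes with the lowest log2 fold changes named above, Frzb, Apoe, Dgat2, Egfl6, Bcl2, C2cd4b, Ttyh1, Bace2 and Ndrg2 had means of 0, 26.6, 4.15, 1.85, 63.9, 23.1, 99.2, 75.7 and 121 CPM in IPCs, each below the 186, 198, 126, 263, 236, 309, 411, 161 and 245 CPM of DC1/2s, and Cep41 had a mean of 608 CPM, above the 339.8 CPM of DC1/2s. Both DC3s and IPCs are set here beside the same DC1/2 libraries. Cryab is also on the list of IPC markers. The 3 markers of that list other than Npy are Cryab, Emid1 and S100b. They summed to 3543, 6493, 6058 and 2482 CPM in DC3s, 1602, 2835, 2751 and 1858 CPM in DC1/2s and 7361 to 13292 CPM in IPCs. The DC1/2 gate required Emid1 in every cell, while 80.9% of DC3s held it, so that the DC1/2 sum was in part set by the gate. Npy itself was held under its limit by the gate, and 65 of the 68 DC3s had no UMI of it. The part of pillar-like cells in the DC3 gate was not tested.

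**Figure D5:**
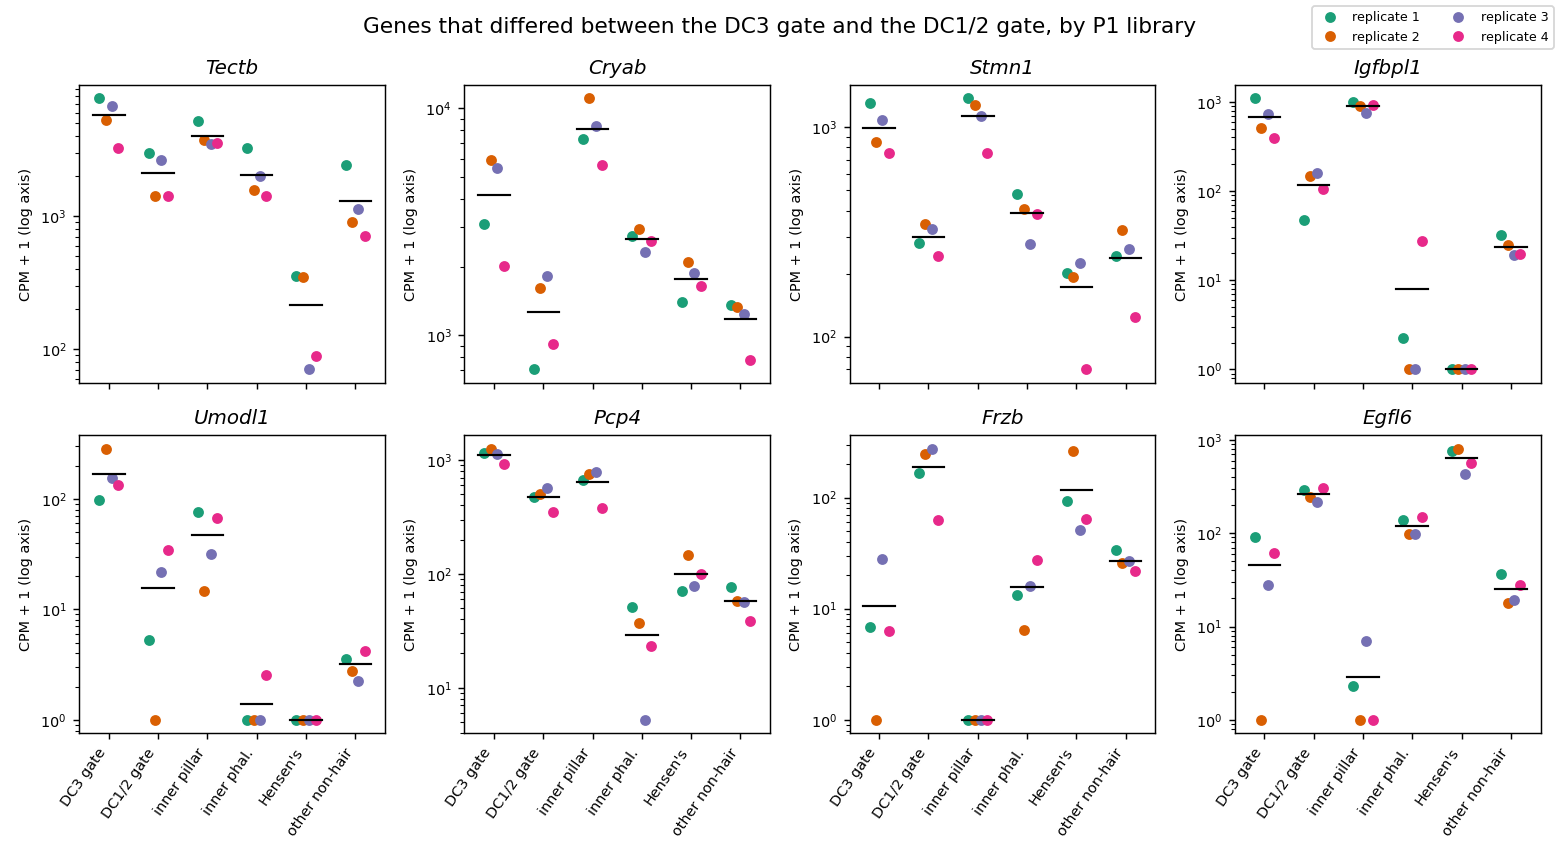
Points give the level of 8 genes in CPM plus 1, on a log axis, in each of the 4 P1 libraries, and black lines give the mean. Tectb, Cryab, Stmn1, Igfbpl1, Umodl1 and Pcp4 are higher in the DC3 gate than in the DC1/2 gate in all 4 libraries and are also above the DC1/2 gate in the means of inner pillar cells, while Frzb and Egfl6 are lower.

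IPhCs surround the inner HCs on the medial side, and 269 cells passed their gate. Of 8354 genes tested, 161 (1.93%) were higher and 332 (3.97%) were lower in DC3s, and at equal UMIs 27 and 55. On the mean of the deposited log values 222 were higher and 243 lower. The counts were 91 and 229 without replicate 1, 209 and 364 without replicate 2, 108 and 240 without replicate 3 and 107 and 234 without replicate 4. Of the genes named here for this comparison, Cdkn1a lost its call without replicate 1, 2 or 3, S100b without replicate 1 and Cryab without replicate 2 or 3. At equal UMIs Proser2, Hes5, Hey1, Cdkn1a, S100b, S100a1 and Cryab were not called. Igfbpl1 was at 1.23, 0, 0 and 26.7 CPM in IPhCs, below every DC3 library (log2 fold change 5.49, SE 0.45, adjusted p = 1.15e-14 by limma). Pcp4 was at 50.7, 36.3, 4.23 and 22.2 CPM in IPhCs (log2 fold change 5.06), and Umodl1 had 1 UMI in all IPhCs. Fam159b, Itih5 and Proser2 were also among the largest rises (log2 fold changes 3.94, 3.87 and 3.68). Fam159b is on the list of Hensen's cell markers. Fgfr1 was at 169, 385, 119 and 331 CPM in DC3s and 3.10, 0, 11.7 and 40.3 CPM in IPhCs (log2 fold change 3.60, SE 0.52, adjusted p = 5.44e-07 by limma).

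Of the 6 Hes and Hey genes tested, 2, Hes5 and Hey1, were higher in DC3s than in IPhCs and 0 were lower by limma. Hes5 was at 497, 368, 209 and 1355 CPM in IPhCs (log2 fold change 2.54, limma's adjusted p = 1.62e-14), and Lfng at 462, 202, 229 and 297 CPM (log2 fold change 1.86, limma's adjusted p = 4.37e-10). At equal UMIs Lfng was called, unlike Hes5 and Hey1 (limma's adjusted p = 0.041, 0.0856 and 0.0674). The log2 fold change of Hey1 was 1.19. Cdkn1a, Stmn1, S100b and S100a1 were higher too (log2 fold changes 1.01, 1.34, 2.25 and 0.55). Lgr5 was not called (log2 fold change 0.48 ± 0.35, SE). Tectb was higher and Tecta lower, by 1.48 and -1.39 on the log2 scale. Cryab was 2725, 2950.3, 2313 and 2596 CPM in IPhCs (log2 fold change 0.51), but without replicates 2 and 3 the sign turned, to -0.092.

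The genes that were lower in DC3s included the IPhC markers. Fabp7, a fatty acid binding protein of glia-like cells, was at 5012, 3033, 2005 and 512 CPM in IPhCs and 30.04, 0, 0 and 10.5 CPM in DC3s (log2 fold change -6.89, SE 0.36, adjusted p = 9.06e-23 by limma). Gjb6 was at 729, 499, 801 and 1319 CPM in IPhCs against 4.32, 0, 0 and 21.1 CPM, and Gjb2 at 4058, 4119, 4453 and 4794 CPM against 138, 66.9, 130.2 and 189 CPM (log2 fold changes -5.78 and -5.03). Lgals1, Sparcl1, Mia and Gsn fell by 5.28 to 6.06 on the log2 scale. All 3 IPhC markers tested were lower.

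Hensen's cells, the lateral neighbors of DC3s, were gated on Pmch and numbered 106 (36, 8, 13 and 49). Of 8376 genes tested, 104 (1.24%) were higher and 152 (1.81%) were lower in DC3s, and at equal UMIs 31 and 51. These counts rested on single libraries: without replicate 2 they were 274 and 316, without replicate 3 they were 44 and 69, without replicate 4 they were 49 and 86 and without replicate 1 they were 64 and 96. Of the genes named here for this comparison, Fgfrl1 lost its call without replicate 3 and without replicate 4, and Kremen1 without replicate 4. At equal UMIs Hes5, Sox2, Jag1, Fgfrl1, Kremen1 and Gata2 were not called. Igfbpl1 had no UMI in Hensen's cells, which puts it at least 171-fold higher in DC3s against a floor of 3 UMIs over the group, and Umodl1 at least 42.0-fold higher. Tectb was at 352, 347, 69.3 and 87.7 CPM in Hensen's cells (log2 fold change 4.94, SE 0.30, adjusted p = 7.91e-07 by limma). Hes5 was at 52, 1038, 0 and 126 CPM and Lfng at 16.9, 227, 48.6 and 13.3 CPM, in both of which replicate 2 was the highest (log2 fold changes 4.87 and 4.29). Eva1a was at 236, 276, 171 and 396 CPM in DC3s against 0, 0, 7.32 and 17.8 CPM.

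Sox2, Jag1, Fgfrl1, Kremen1 and Pcp4 were also higher than in Hensen's cells, by 2.49, 2.37, 2.53, 2.48 and 3.43 on the log2 scale. All 4 Hensen's cell markers tested were lower in DC3s, though Nupr1 was not called at equal UMIs. Fst, follistatin, an inhibitor of activins, was at 1261, 1859.7, 3473 and 2749.9 CPM in Hensen's cells and 36.99, 0, 19.9 and 16.1 CPM in DC3s (log2 fold change -6.47, SE 0.40, adjusted p = 8.35e-07 by limma). Fabp7 and Igf1 fell by 5.56 and 5.36 on the log2 scale. Tulp2 had no UMI in DC3s and was at least 34.8-fold lower than in Hensen's cells, against a floor of 3 UMIs over the group. Rgs4 also had no UMI in DC3s, and was at 103, 175, 164 and 599 CPM in Hensen's cells, highest in replicate 4. Lurap1l had 1 UMI in DC3s and 199 in Hensen's cells. Bmp4 was at 101, 73.6, 269.8 and 217 CPM in Hensen's cells and had no UMI in DC3s, and Gata2 was at 693, 443, 806 and 897 CPM against 27, 61.03, 0 and 92.2 CPM.

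All 4 comparisons share the DC3 libraries, so that their values for a gene are given side by side as a description. Against all other non-hair cells, DC1/2s, IPhCs and Hensen's cells in turn, the log2 fold changes were 2.24, 1.45, 1.48 and 4.94 for Tectb, 2.07, 1.69, 1.34 and 2.56 for Stmn1 and 3.69, 0.86, 2.54 and 4.87 for Hes5. For Mia they were -6.30, -1.91, -5.40 and -4.11, and for Cyr61, a matrix-associated signaling protein, -3.47, -1.17, -2.90 and -2.72. Kazald1 was also lower, with log2 fold changes of -1.23 against all other non-hair cells and -1.29 against DC1/2s. Over 3443 genes of at least 50 CPM, at equal UMIs and within a library, the profile of DC3s correlated with that of DC1/2s at Pearson's r of 0.905, 0.498, 0.766 and 0.908 in replicates 1 to 4. For IPCs r was 0.854, 0.446, 0.725 and 0.853, for IPhCs 0.816, 0.422, 0.626 and 0.798, and for Hensen's cells 0.794, 0.435, 0.650 and 0.749. DC1/2s had the highest r in each library, and r was lowest in replicate 2 for every group, where DC3s held the fewest UMIs. DC1/2s met every other limit of the DC3 gate, while IPCs, IPhCs and Hensen's cells were gated on Npy, Matn4 and Pmch. The first rank of DC1/2s was thus in part set by the gates. These correlations are descriptions across genes of the same library, which are not independent replicates.

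The gated cells were also set side by side by how much Fgf3 was captured. Lgr5 averaged 202 CPM in the 21 cells with 1 UMI of Fgf3 and 218 CPM in the 47 with 2 or more. Hes5 was at 2744 and 2414 CPM in the same cells, Tectb at 5616 and 5350 CPM and Cryab at 2576 and 3196 CPM. Igfbpl1 was at 556 CPM with 1 UMI and 771 CPM with 2 or more. Emid1, which the DC1/2 gate required, was found in 55 of the 68 DC3s; the 13 without it held 323 CPM of Igfbpl1 and 239 CPM of Lgr5, against 795 and 207 CPM in the 55. These subsets pool libraries and were not tested.

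At other ages, the same gate was applied without change. No cell passed at E14, where 0 of 2198 and 0 of 3055 cells allow shares of up to 0.136% and 0.0982% by the rule of 3 cells of the total, or 0.168% and 0.121% by the exact 95% intervals used for the other shares. At E16, 2, 3 and 8 cells passed in replicates 1 to 3 (0.160%, 0.107% and 0.205%), at median depths of 2478 to 2750 UMIs per cell. At P7, 3 of 1775 cells and 0 of 1602 cells passed, the latter allowing up to 0.187% by the rule of 3 cells and 0.230% by the exact interval. The gated E16 cells held 4575, 6365 and 27271 UMIs in replicates 1 to 3. Hes5 was at 1222, 307 and 574 CPM in them, below the 2072 CPM of the lowest P1 library. Igfbpl1 was at 611, 298 and 28.8 CPM, which overlaps the P1 range of 393 to 1093 CPM. In the 3 cells at P7, Hes5 was at 307 CPM and Igfbpl1 at 401 CPM. The ages differ in depth, and a gene with few transcripts passes a detection gate less often at low depth, so that the shares were not tested between ages.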

How the data were processed

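The study sequenced cells of the dissociated floor of the mouse cochlear duct by droplet RNA sequencing, and the 4 P1 libraries were analysed here. Per the submitters' processing notes, reads were aligned to mm10 with Cell Ranger 2.1.1 and cells were filtered and normalized in Seurat 2.0. The authors deposited natural log values, ln(1 + 10000 × the gene's share of the UMIs of the cell); UMIs worked back from them were whole within 2%. No column lacked a sample. The members, gene lists and tests were chosen with earlier results of these data known. Cells were gated as stated above, and no doublet caller was run; leaving out cells of over 3000 genes or 15000 UMIs is among the alternatives.

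Means over cells, per group and library, were taken in CPM. For the fits and correlations at equal UMIs, the UMIs of each group were instead summed per library, DC3s included, before drawing and scaling to CPM. Genes of at least 10 CPM were tested with limma 3.58.1 (R 4.3.3) on log2(mean CPM + 10), with a mean trend, library as a block (both groups of a pair come from 1 pool) and Benjamini-Hochberg adjustment at 0.05. The added 10 CPM shrinks the fold changes of weak genes. Each profile had the same weight, whatever its number of cells. The prior degrees of freedom were 44.5 against all other non-hair cells, 35.0 against DC1/2s, 54.0 against IPhCs and 10.3 against Hensen's cells. Very small p-values thus rest in large part on a spread shared over genes, and not on the 4 pairs alone. A log2 fold change is DC3s minus the other group. On simulated data the fit against all other non-hair cells made many false calls of weakly expressed genes. Each simulated profile held the UMI total of its real profile, few in DC3s and many in the others. The spread between cells was not simulated, so that the false calls it may add were not measured. In this simulation the fit made none with comparison profiles drawn down to equal UMIs, an alternative chosen after seeing the data, or with genes of at least 50 CPM, but both recovered fewer changes. The named genes were, among genes called and changed the same way in all 4 libraries (without mitochondrial, ribosomal, haemoglobin, Gm-numbered and Rik genes, Xist and Tsix), the 12 highest and 8 lowest against all other non-hair cells, 10 and 10 against DC1/2s, 6 and 6 in the other comparisons, and 2 to 4 members of each list. Genes called in every comparison and single genes that make up a count of at most 5 were named after their values were seen. Positions are from GENCODE M21 and sequences from RefSeq (GRCm38, the same assembly as mm10). Gene counts overlapping on opposite strands were not separated here.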

Additional observations from a re-analysis of the deposited data

Results flagged for a closer look

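The results set apart were of 2 kinds: a library far from the other 3 of its group, and cells that passed the gate outside P1. Of 267 sets of 4 libraries, each a gene in a group, 18 held such a library by Dixon's test at 95%, and chance alone gives about 1 in 20 sets. Replicates 1, 2, 3 and 4 were the outlying library in 5, 6, 1 and 6 of these. For Lurap1l in DC3s and Umodl1 in IPhCs the whole group held 1 UMI. Its library was then flagged whatever its level, and the rate of chance does not apply.

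Among DC3s, replicate 2 was the high library for C2cd4b at 295.9 CPM (others 8.61 to 38.5), Cdkn1a at 552 CPM (others 216 to 253) and Gata3 at 779 CPM (others 578 to 612). Replicate 2 holds 3 DC3s. Emx2 stood at 262 CPM in replicate 1 (others 141 to 151), Cdh1 at 406 CPM in replicate 4 (others 202 to 236), Igf1 at 39.7 CPM in replicate 3 (others 0 to 5.08) and Lurap1l at 4.30 CPM in replicate 1 (others 0).

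In Hensen's cells, replicate 2 was high for Hes5 at 1038 CPM (others 0 to 126) and for Lfng at 227 CPM (others 13.3 to 48.6), Lurap1l stood at 345 CPM in replicate 1 (others 185 to 204) and Rgs4 at 599 CPM in replicate 4 (others 103 to 175). In IPhCs, Mia stood at 6974 CPM in replicate 1 (others 2458 to 2849), and Igfbpl1 and Umodl1 at 26.7 and 1.55 CPM in replicate 4 (others up to 1.23 CPM and 0). Sox2 in DC1/2s stood at 495 CPM in replicate 2 (others 306 to 330.5). In all other non-hair cells, Meg3 was low in replicate 1 at 478 CPM (others 873 to 920.5), Rab3b low in replicate 4 at 5.85 CPM (others 30.0 to 31.4) and Rflnb high in replicate 4 at 87.5 CPM (others 44.7 to 50.4).

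At E16, outside the comparisons of the report, 13 cells passed the gate of the DC3s. Any count over 3 cells was listed, and nothing about the ages was tested.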

How the results depend on the processing

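Counts of genes called higher and lower depended on the processing more than directions did. Against all other non-hair cells they were 166 and 223 with a pseudocount of 1 CPM, 256 and 3556 with no filter on low values, 202 and 199 with genes of at least 50 CPM, 415 and 293 on the mean of the log values, 95 higher with at least 2 UMIs of Fgf3, 44 and 55 at equal UMIs and 494 and 540 without replicates 2 and 3. Leaving out 1 replicate gave 177 to 399 higher and 285 to 492 lower genes. Against DC1/2s they were 7 and 7 with a pseudocount of 1 CPM, 9 and 20 with no filter, 7 and 9 with genes of at least 50 CPM, 16 lower on the mean of the log values, 9 and 27 with Prss23 at 2.5 or more, 11 higher with at least 2 UMIs of Fgf3, 2 and 1 at equal UMIs and 30 higher without replicates 2 and 3. Leaving out 1 replicate gave 12 to 17 higher and 48 to 61 lower. Against IPhCs they were 81 and 173 with a pseudocount of 1 CPM, 99 and 211 with no filter, 92 and 155 with genes of at least 50 CPM, 66 and 200 with at least 2 UMIs of Fgf3 and 27 and 55 at equal UMIs, and 91 to 209 higher and 229 to 364 lower without 1 replicate. Against Hensen's cells they were 29 and 49 with a pseudocount of 1 CPM, 63 and 94 with no filter, 48 and 96 with at least 2 UMIs of Fgf3, 205 and 268 with limma weights by the number of cells, 31 and 51 at equal UMIs and 340 and 333 without replicates 2 and 3, and 44 to 274 higher and 69 to 316 lower without 1 replicate.

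The paired libraries entered as a block. Without that replicate block the counts were 144 and 297 against all other non-hair cells, 6 and 9 against DC1/2s, 62 and 169 against IPhCs and 75 and 125 against Hensen's cells. Equal UMIs, weights by cells and the fits without replicates 2 and 3 were chosen after seeing the data. The cause of these shifts was not tested, other than the fewer samples or UMIs that the alternatives hold.

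Of the genes named, the sign turned for Nrarp against all other non-hair cells with at least 2 UMIs of Fgf3 (-0.19 on the log2 scale) and for Cryab against IPhCs without replicates 2 and 3 (-0.092). Against DC1/2s it turned only for genes not called. Hey1 was at -0.00041 on the mean of the log values, -0.0029 to 0.14 without 1 replicate, -0.39 with at least 2 UMIs of Fgf3 and -0.011 at equal UMIs. S100a1 was at 0.0012 with summed UMIs, -0.042 to 0.020 without 1 replicate, 0.052 with Prss23 at 1.5 or more and 0.017 with at least 2 UMIs of Fgf3. Sox2 was at -0.025 to 0.24 without 1 replicate, -0.36 with at least 2 UMIs of Fgf3 and -0.14 at equal UMIs. The limit of 2 UMIs of Fgf3 left 18, 1, 4 and 24 DC3s in replicates 1 to 4. At equal UMIs, 41 of 74 genes named against all other non-hair cells and 32 of 40 against DC1/2s kept their direction without keeping their side of the threshold. The mean share of cells in the gate, 0.426%, moved by less than the spread between libraries in each gate setting tried, to 0.278% at the lowest.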
